A study of Mus musculus with 6 samples.

Results

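Described here are 10 genes of arginine and polyamine metabolism in cultured mouse cells labelled as granulosa cells. Granulosa cells are the somatic cells that surround the oocyte. The genes are the transporters Slc7a1 and Slc7a2, the arginine enzymes Ass1, Asl and Arg2, and the polyamine genes Odc1, Azin1, Srm, Sms and Sat1. They were taken by symbol from a table of 30862 gene rows, where each symbol has 1 row, and the choice of symbols was made with earlier results of these libraries in view. Which values were then looked at is not recorded, so the levels and the difference between the groups are given as a description and support no claim about the choice. PS-MP cells were exposed to sonicated polystyrene microplastics of 100 nm at 750 µg/mL for 24 h (3 libraries). Control cells had 0 µg/mL (3 libraries) and carry the treatment label WT. Both groups came from ovaries of ICR mice aged 21 days, obtained by enzyme digestion, and adhered for 12 h before exposure. The replicates are labelled biological, with no word on separate animals or cultures, so a p-value here reflects variation among these libraries that may be partly technical. The table holds a further set of libraries under similar column names, and the names do not show which set is the samples', so each level rests on the columns chosen by name.

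Cells take up arginine through cationic amino acid transporters and can also rebuild it from citrulline. Arginase turns arginine into ornithine, which ornithine decarboxylase converts to putrescine, the first polyamine. Spermidine and spermine synthases then add aminopropyl groups that come from methionine, and an acetyltransferase marks polyamines for breakdown or export. Polyamines bind nucleic acids and support translation and proliferation, and in the ovary ornithine decarboxylase is known to respond to gonadotropins.

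The libraries held 61307867 to 70240738 estimated counts in PS-MP and 56967176 to 63807940 in control cells. Several defining granulosa markers were scarce: Foxl2, which maintains granulosa identity, did not exceed 0.204 FPKM (fragments normalised for transcript length and for sequencing depth), and Cyp11a1, the first enzyme of steroid synthesis, did not exceed 0.036 FPKM, whereas Inhba, an activin subunit, was at 87.5 to 133 FPKM in PS-MP and 109 to 146 FPKM in control libraries. Smooth muscle and pericyte markers (8 of 8 tested) summed to 2470 to 3690 FPKM in PS-MP and 2720 to 3500 FPKM in control libraries, and Acta2, smooth muscle actin, made up most of that. In bulk RNA, fewer cells of a type and less RNA per cell cannot be told apart. Each library was closest in counts to the same-numbered library of the other group, except control 3. Control 3 was closer to PS-MP 2 and control 2 (chi-square per degree of freedom 19.9 and 25.2) than to PS-MP 3 (33.5). The 3 same-numbered pairs of PS-MP and control libraries are set side by side below, although the labels state no pairing.

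All 10 genes were tested, and 0 of 10 were called different between PS-MP and control cells. A call meant a Benjamini-Hochberg adjusted p under 0.05 and at least 1.5-fold in edgeR's quasi-likelihood test over 17186 genes. In that test 0.0% of genes were called (0 genes), and 226 of the 17186 (1.32%) had an unadjusted p under 0.05. This is below the share that a threshold of 0.05 lets through when no gene differs. With replicate number also in the edgeR model the share was 4.94% (849 genes). The test without it was thus strict here, and its 0 calls do not exclude differences. In the test without it 0 of the 10 genes had an unadjusted p under 0.05. DESeq2, which called 1 gene in all (0.00582%), called 0 of them, as did limma-trend on FPKM. The adjusted p was 1 for each gene. For 6 genes (Slc7a1, Slc7a2, Asl, Azin1, Sms and Sat1) the 95% interval of the log2 fold change lay within 1.5-fold in either direction. The intervals of Ass1, Arg2, Odc1 and Srm reached past 1.5-fold on at least 1 side, so a change of that size is not excluded for them by this fit. The median log2 fold change of the 10 genes was 0.0156, against 3.39e-05 over all genes tested.

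**Figure D1:**
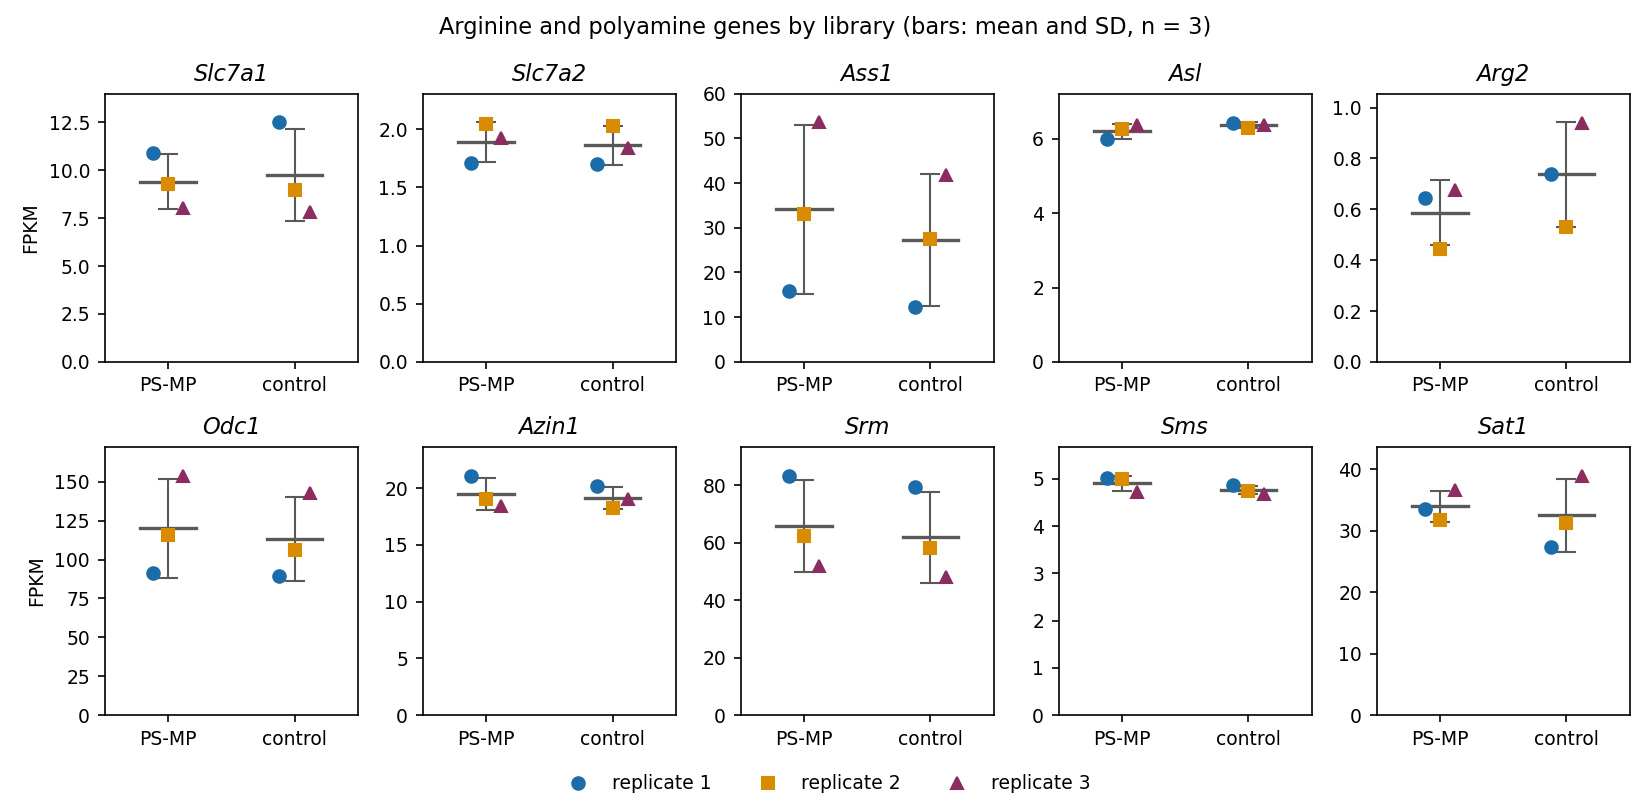
FPKM of the 10 genes in each PS-MP library (left) and control library (right), with the mean and SD of 3 libraries per group and symbols for the replicate number. The order of the replicate numbers is the same in both groups for 7 genes (all but Asl, Azin1 and Sat1), and the group means lie within the spread of the libraries.

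Of the arginine transporters, Slc7a1 had the higher level. It encodes the widely expressed cationic amino acid transporter CAT1 (ENSMUSG00000041313, chromosome 5, 148264220 to 148336714, GRCm39). Its levels were 10.9, 9.29 and 8.01 FPKM in PS-MP 1, 2 and 3, against 12.5, 8.95 and 7.84 FPKM in control 1, 2 and 3. In each group the library numbered 1 was the highest and that numbered 3 the lowest, and the groups overlapped. The log2 fold change was -0.07 ± 0.19 (SE; 95% interval -0.51 to 0.36). Within pairs 1, 2 and 3, PS-MP minus control was -0.22, 0.02 and 0.03 on the log2 scale, so only pair 1 was apart.

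Slc7a2, the transporter CAT2, which inflammatory stimuli induce in macrophages (ENSMUSG00000031596, chromosome 8, 41315433 to 41375345), stood several-fold lower per length. Its levels were 1.71, 2.04 and 1.92 FPKM in PS-MP 1, 2 and 3, against 1.70, 2.03 and 1.84 FPKM in control libraries of the same numbers. Same-numbered libraries were nearly equal, and number 2 was the highest in both groups. Its log2 fold change was 0.00 ± 0.12 (SE; -0.28 to 0.28). The FPKM ratio of Slc7a1 to Slc7a2 was 6.38, 4.56 and 4.17 in PS-MP 1, 2 and 3 and 7.34, 4.40 and 4.27 in control 1, 2 and 3, so the balance of the transporters differed more between number 1 and the others than between treatments.

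Among the enzymes of arginine synthesis, Ass1 varied most of all 10 genes. Ass1, argininosuccinate synthase, joins citrulline and aspartate in the step that limits arginine recycling (ENSMUSG00000076441, chromosome 2, 31360219 to 31410684). It was at 15.8, 33.0 and 53.6 FPKM in PS-MP 1, 2 and 3, against 12.3, 27.5 and 41.8 FPKM in control 1, 2 and 3. Libraries numbered 1 were low and those numbered 3 high in both groups, with a ratio of 4.36 between the highest and the lowest library, and the groups overlapped. Group means were 34.1 ± 18.9 FPKM in PS-MP and 27.2 ± 14.8 FPKM in control cells (SD, n = 3 each), and the log2 fold change was 0.31 ± 0.52 (SE; -0.92 to 1.55). Each PS-MP library was nevertheless higher than the control library of its own number, by log2 differences of 0.33, 0.23 and 0.36.

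With the replicate number as a block the Ass1 log2 fold change stayed at 0.31 with an SE of 0.05. The block takes the numbers as pairs, which the labels do not state. The unadjusted p was 0.000415 and the adjusted p 0.883 (edgeR), and the fold lay under 1.5, so Ass1 was not called, nor was any other of the 10 genes in this fit (0.00582% of all genes). DESeq2 with the block, an alternative added after the data were seen, gave an adjusted p of 0.0107 for a log2 fold change of 0.30, under 1.5-fold, and called 0.0233% of all genes. With the block and pair 1, 2 or 3 left out, the Ass1 value was 0.30, 0.35 and 0.28. Without the block it was -0.17 when PS-MP 3 was left out and -0.04 when control 1 was left out.

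Asl, argininosuccinate lyase, which releases arginine in the next step (ENSMUSG00000025533, chromosome 5, 130040099 to 130053860), hardly varied. It was at 5.99, 6.26 and 6.36 FPKM in PS-MP 1, 2 and 3, against 6.43, 6.29 and 6.38 FPKM in control 1, 2 and 3. On library-scaled counts every PS-MP library lay below every control library, by a gap of only 0.002 on the log2 scale, whereas by FPKM the groups overlapped. Among all tested genes 2.68% had PS-MP libraries entirely below control libraries, and Asl was 1 of 10 genes here. The log2 fold change was -0.06 ± 0.08 (SE; -0.23 to 0.12). Because Asl was steady, the FPKM ratio of Ass1 to Asl followed Ass1: it was 2.64, 5.27 and 8.43 in PS-MP 1, 2 and 3 and 1.91, 4.37 and 6.55 in control 1, 2 and 3.

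Arg2, the mitochondrial arginase that splits arginine into ornithine and urea (ENSMUSG00000021125, chromosome 12, 79177551 to 79203075), was the lowest of the 10 genes. It was at 0.643, 0.442 and 0.676 FPKM in PS-MP 1, 2 and 3, against 0.739, 0.531 and 0.941 FPKM in control 1, 2 and 3, from 43 to 89 estimated counts per library. Number 2 was the lowest in both groups, and PS-MP was lower in all 3 pairs by log2 differences of -0.23, -0.29 and -0.46. The unpaired log2 fold change was -0.34 ± 0.32 (SE; -1.08 to 0.41), and the blocked one was -0.33 ± 0.28 (SE, unadjusted p = 0.269 by edgeR). Genes on the opposite strand, Vti1b among them, cover 41.8% of its exon bases in GENCODE M39, whose extent of Arg2 differs from the deposited one. Whether counting used strand is not stated, so the level of Arg2 is uncertain. Arg1, the cytosolic arginase of liver, did not exceed 0.106 FPKM.

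The level of Odc1, ornithine decarboxylase, was the highest of the 10 genes (ENSMUSG00000011179, chromosome 12, 17594795 to 17601085). It catalyses the first and usually limiting step of polyamine synthesis. It was at 91.1, 116 and 154 FPKM in PS-MP 1, 2 and 3, against 89.6, 106 and 143 FPKM in control 1, 2 and 3. As with Ass1, number 1 was low and number 3 high in both groups, over a ratio of 1.72, and the groups overlapped. The log2 fold change was 0.08 ± 0.23 (SE; -0.45 to 0.61), and pairs 1, 2 and 3 differed by -0.01, 0.09 and 0.11.

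Azin1, antizyme inhibitor, resembles ornithine decarboxylase but has no decarboxylase activity, and it keeps the enzyme active by binding its inhibitor antizyme (ENSMUSG00000037458, chromosome 15, 38487671 to 38519510). It was at 21.1, 19.0 and 18.4 FPKM in PS-MP 1, 2 and 3, against 20.2, 18.2 and 19.0 FPKM in control 1, 2 and 3. Number 1 was the highest in both groups, within a ratio of 1.16 over all libraries, and the log2 fold change was 0.01 ± 0.07 (SE; -0.17 to 0.19). The FPKM ratio of Odc1 to Azin1 was therefore 4.31, 6.11 and 8.36 in PS-MP 1, 2 and 3 and 4.45, 5.84 and 7.52 in control 1, 2 and 3.

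Srm, spermidine synthase (ENSMUSG00000006442, chromosome 4, 148675960 to 148679076), ran opposite to Odc1. It was at 83.3, 62.3 and 51.8 FPKM in PS-MP 1, 2 and 3, against 79.2, 58.2 and 48.0 FPKM in control 1, 2 and 3. Number 1 was high and number 3 low in both groups, the groups overlapped, and PS-MP was higher in all 3 pairs by 0.04, 0.06 and 0.11 on the log2 scale. The log2 fold change was 0.07 ± 0.22 (SE; -0.46 to 0.59). The FPKM ratio of Odc1 to Srm, consecutive enzymes of the pathway, was 1.09, 1.87 and 2.97 in PS-MP 1, 2 and 3 and 1.13, 1.83 and 2.97 in control 1, 2 and 3. It thus differed widely between numbers and hardly between treatments within a number.

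Sms, spermine synthase (ENSMUSG00000071708, chromosome X, 156226851 to 156275283), was steady and far below Srm per length. It was at 5.01, 4.99 and 4.72 FPKM in PS-MP 1, 2 and 3, against 4.86, 4.75 and 4.69 FPKM in control 1, 2 and 3. The log2 fold change was 0.02 ± 0.08 (SE; -0.16 to 0.20), and PS-MP was higher in all 3 pairs by 0.01, 0.04 and 0.01. A pseudogene row, Sms-ps, stood at 7.67 to 9.22 FPKM in PS-MP and 7.53 to 8.64 FPKM in control libraries, and reads of Sms and its copy cannot be told apart with certainty.

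Sat1, spermidine/spermine acetyltransferase, starts polyamine breakdown and export (ENSMUSG00000025283, chromosome X, 153996128 to 153999445). It was at 33.5, 31.7 and 36.7 FPKM in PS-MP 1, 2 and 3, against 27.3, 31.3 and 39.0 FPKM in control 1, 2 and 3. Number 3 was the highest in both groups, and control 1 was the lowest of all libraries. Its pairs differed by 0.26, -0.01 and -0.08, and the log2 fold change was 0.04 ± 0.13 (SE; -0.26 to 0.35).

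**Figure D2:**
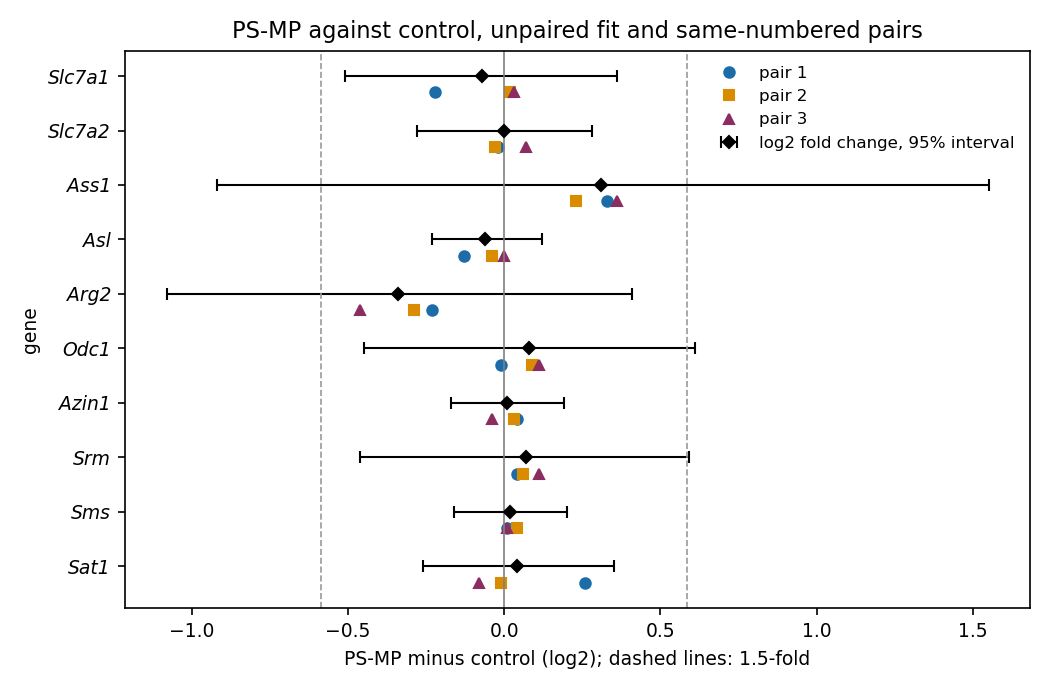
PS-MP minus control on the log2 scale for each gene: diamonds with 95% intervals from the unpaired fit, and below each the differences within same-numbered pairs. The Ass1 interval runs from -0.92 to 1.55 although its pairs lie between 0.23 and 0.36.

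Among all tested genes 14.6% were higher with PS-MP in all 3 pairs and 13.3% were lower in all 3. Of the 10 genes 3 were higher in all 3 pairs (Ass1, Srm and Sms) and 2 were lower (Asl and Arg2). Since this contrast may have been in view when the genes were chosen, nothing is read from these counts.

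The variation among the 10 genes lay mostly between replicate numbers. The number accounted for a median of 92.3% of the variance of log2 CPM (counts scaled to library size) over the 6 libraries, against a median of 61.0% over all 17186 tested genes and 69.4% over 9324 genes of at least 10 CPM. The share was 98.1% for Srm, 97.9% for Odc1 and 95.6% for Ass1. Asl, whose log2 CPM ranged over only 0.13, was the exception at 17.7%. Treatment accounted for 0.0358% (Slc7a2) to 43.4% (Asl), with 4.25% for Ass1 and 24.3% for Arg2. Since replicate number has more degrees of freedom than treatment, these shares are descriptions and were not tested. The genes were chosen with earlier results of these libraries in view, so nothing is read from their difference to all genes.

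**Figure D3:**
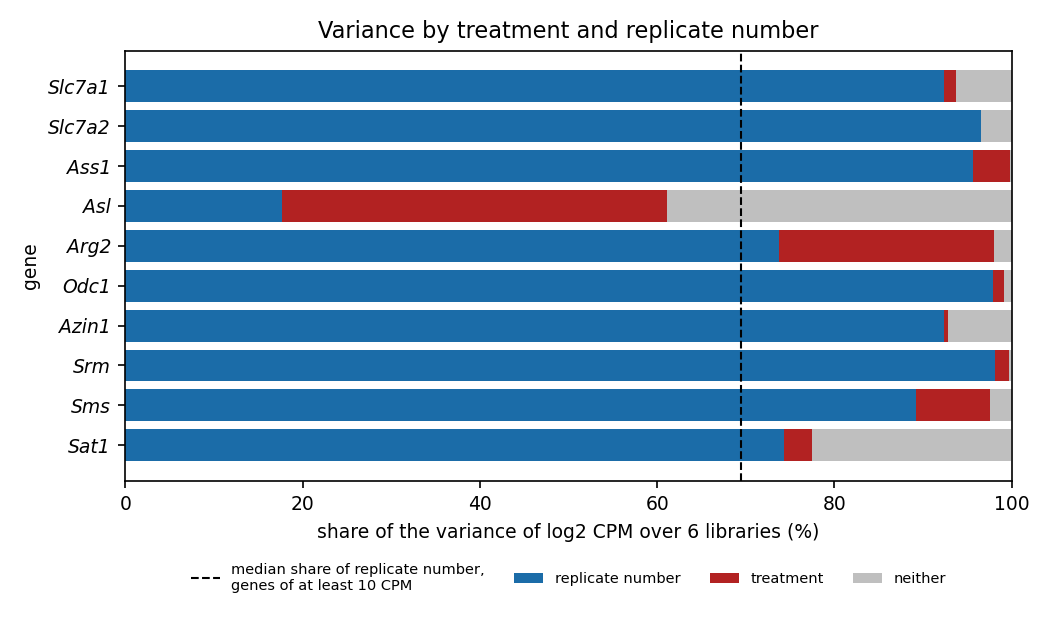
Share of the variance of log2 CPM over the 6 libraries that goes with replicate number, treatment or neither, per gene; the dashed line is the median share of replicate number over genes of at least 10 CPM (69.4%). Bars of 9 genes reach past the line, and the bar of Asl (17.7%) does not.

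The genes fell into patterns across the numbers. Relative to its own mean, Ass1 was at -0.80, 0.29 and 0.98 log2 units in PS-MP 1, 2 and 3 and at -1.13, 0.06 and 0.62 in control 1, 2 and 3. Odc1 was at -0.35, 0.03 and 0.42 in PS-MP and at -0.34, -0.07 and 0.31 in control libraries of those numbers. Srm had the opposite signs, 0.39, -0.00 and -0.28 in PS-MP and 0.35, -0.07 and -0.39 in control libraries, and Slc7a1 was at 0.18, -0.02 and -0.25 in PS-MP and at 0.41, -0.04 and -0.28 in control libraries. Libraries numbered 3 thus had more Ass1 and Odc1 and less Srm and Slc7a1 than libraries numbered 1, whatever the treatment.

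**Figure D4:**
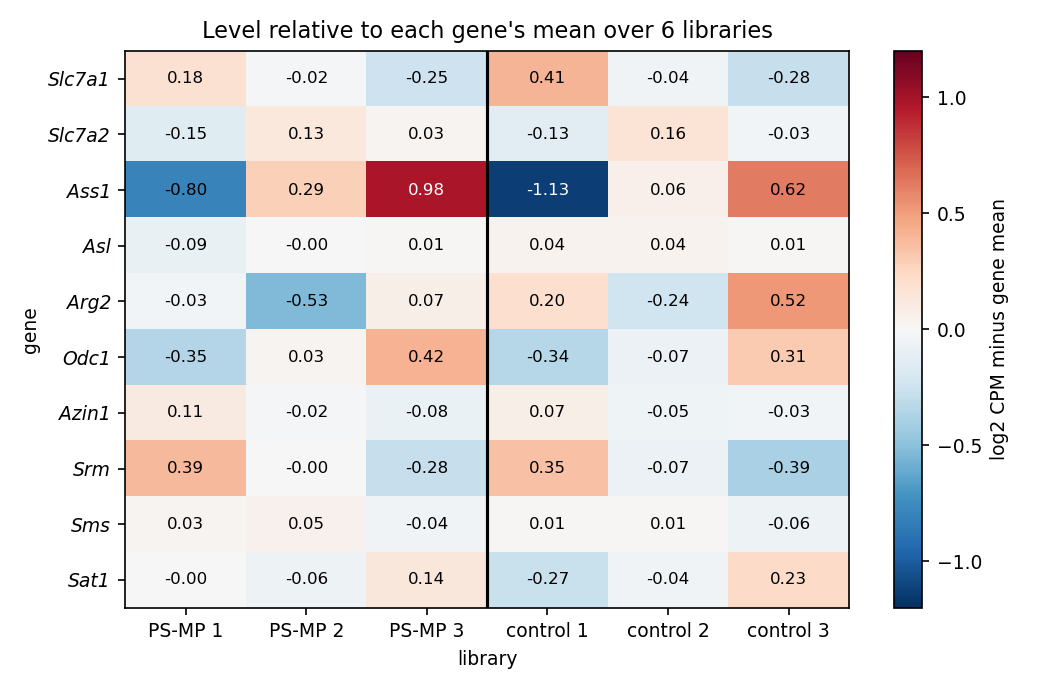
Log2 CPM of each gene minus its mean over the 6 libraries, PS-MP libraries left of the line and control libraries right of it; red is above and blue below the mean. Ass1 spans -1.13 (control 1) to 0.98 (PS-MP 3), and Srm and Slc7a1 show the opposite colours to Ass1 and Odc1 in libraries 1 and 3.

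Markers of some other cells also differed between the numbers. Ovarian surface epithelium markers (7 of 8 tested) summed to 33.0, 10.5 and 4.18 FPKM in PS-MP 1, 2 and 3 and to 28.8, 10.6 and 4.14 FPKM in control 1, 2 and 3. The sum, made up mostly of Krt18, Upk1b and Krt8, was thus highest where Ass1 and Odc1 were lowest. Of these markers Upk3b was at 0 in PS-MP 3 and control 3, and Epcam at 0 in PS-MP 3, control 2 and control 3. The scarce Krt7 did not share this order in PS-MP. It was at 0.0423, 0.0361 and 0.073 FPKM in PS-MP and 0.0338, 0.026 and 0.0242 FPKM in control 1, 2 and 3. Smooth muscle and pericyte markers summed to 3690, 3280 and 2470 FPKM in PS-MP and 3500, 3350 and 2720 FPKM in control 1, 2 and 3, a sum made up mostly of Acta2 and Tagln. The pericyte genes of that list did not share this order: Pdgfrb was at 37.2, 37.0 and 38.1 FPKM in PS-MP and 42.8, 38.9 and 39.9 FPKM in control 1, 2 and 3. Cspg4 was at 4.39, 5.77 and 6.28 FPKM in PS-MP and nearly level at 5.34, 5.37 and 5.41 FPKM in control 1, 2 and 3. Rgs5 did not exceed 0.278 FPKM and was highest in number 3 in both groups. Leukocyte and macrophage markers (4 tested of 6 in the table) summed to 6.90, 6.85 and 9.43 FPKM in PS-MP and 7.56, 7.35 and 10.8 FPKM in control 1, 2 and 3, and the pan-leukocyte gene Ptprc did not exceed 0.00288 FPKM. Granulosa markers (6 tested of 7 in the table) were mostly Inhba. They summed to 142, 122 and 92.3 FPKM in PS-MP and 156, 118 and 114 FPKM in control 1, 2 and 3. Fst also fell from number 1 to number 3 in both groups, but the scarcer genes of that list did not share this order. Inha was lowest in number 1 in both groups. It was at 1.01, 1.2 and 1.11 FPKM in PS-MP and 0.723, 0.987 and 1.09 FPKM in control 1, 2 and 3. Foxl2 was highest in number 3 in both groups. Amh did not exceed 0.253 FPKM, and every PS-MP library was below every control library (log2 fold change -1.28 ± 0.45, SE, not called). It rested on only 7 to 14 estimated counts per library in PS-MP and 20 to 28 in control cells. Among all tested genes 2.68% were likewise lower in PS-MP without overlap. Endothelial markers did not exceed a sum of 0.392 FPKM in PS-MP and 0.397 FPKM in control libraries, and oocyte markers 0.432 FPKM in PS-MP and 0.303 FPKM in control libraries. The part of these cells in the levels of the 10 genes was not tested.

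Upstream sequences are shown for Ass1 and Odc1, which moved together across the numbers, and for Slc7a1, which moved against them. RefSeq promoter entries existed for 5 of the 10 genes. Each window holds the 250 bases before a RefSeq transcription start (table build GRCm38.p6) and matched GRCm39 exactly at 1 place, given here: Ass1 at chr2:31360032-31360281 (plus strand), Odc1 at chr12:17594624-17594873 (plus strand) and Slc7a1 at chr5:148336715-148336964 (minus strand). The deposited gene intervals start further upstream, so that 63 bases of the Ass1 window and 79 of the Odc1 window lie inside them. Sequences run 5′ to 3′ on the gene's strand, and capitals mark matches, on either strand, to the E-box CACGTG, the TATA box TATAAA, the GC box GGGCGG, the cAMP response element TGACGTCA and the AP-1 site TGANTCA.
Ass1: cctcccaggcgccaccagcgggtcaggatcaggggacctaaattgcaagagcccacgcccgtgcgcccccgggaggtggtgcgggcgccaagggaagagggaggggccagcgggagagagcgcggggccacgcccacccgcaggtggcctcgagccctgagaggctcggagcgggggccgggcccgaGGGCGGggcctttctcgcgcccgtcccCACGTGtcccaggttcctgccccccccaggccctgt
Odc1: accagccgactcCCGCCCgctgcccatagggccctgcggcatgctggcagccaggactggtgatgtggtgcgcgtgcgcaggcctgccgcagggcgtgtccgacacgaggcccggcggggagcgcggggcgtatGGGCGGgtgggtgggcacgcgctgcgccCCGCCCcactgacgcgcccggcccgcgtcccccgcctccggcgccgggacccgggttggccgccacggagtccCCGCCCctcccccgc
Slc7a1: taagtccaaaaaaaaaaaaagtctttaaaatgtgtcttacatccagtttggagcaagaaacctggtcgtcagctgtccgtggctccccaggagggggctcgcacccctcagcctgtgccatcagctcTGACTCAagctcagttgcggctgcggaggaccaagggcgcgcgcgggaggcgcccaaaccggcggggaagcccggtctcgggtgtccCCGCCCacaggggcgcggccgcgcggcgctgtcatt
The Ass1 window holds an E-box whose first base is at position -36 from the start, a motif found in 6.02% of 32851 such windows of all genes, and 1 GC box. The Odc1 window holds 4 GC boxes and no E-box, with at least 1 GC box in 32.7% of all windows. The Slc7a1 window holds 1 GC box and an AP-1 match whose first base is at position -123 from the start, a motif in 6.75% of windows. TATA box and cAMP response element letters (12.4% and 1.55% of windows) were in none of these 3 windows. The GC content of the windows was 75.6% (Ass1), 80.0% (Odc1) and 62.4% (Slc7a1), against a median of 52.4% over all windows. The motif shares over all windows are not adjusted for this. These matches describe letters and do not show binding. A second RefSeq entry of Slc7a1, at chr5:148329626-148329875 inside the deposited gene interval, is not shown. It holds a TATA box at position -28 and neither the GC box nor the AP-1 letters.

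By the measure of likeness used (mean absolute difference of centred log2 CPM over 6 libraries, among genes of at least 10 CPM), the genes closest to Ass1 were Add2 (0.093), Ctsh (0.109) and Klk8 (0.113). Ctsh, the protease cathepsin H, was at 4.65, 8.80 and 13.4 FPKM in PS-MP 1, 2 and 3 and at 3.89, 8.10 and 13.4 FPKM in control 1, 2 and 3. The genes closest to Arg2, the member with the next widest range, were Klf5 (0.087), Cd24a (0.114) and Gm43737 (0.114). Arg2 itself was at a mean of only 1.04 CPM, from 43 to 89 estimated counts per library, so its range and this likeness are imprecise. Klf5, a zinc finger transcription factor, was at 2.75, 2.2 and 2.78 FPKM in PS-MP and at 3.15, 2.18 and 3.50 FPKM in control 1, 2 and 3.

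Of 46 other genes of the pathway that were listed, 36 were tested, 0 were called, 15 were above and 21 below 0 on the log2 scale, and the median log2 fold change was -0.04. The groups did not overlap, with PS-MP above control, for 2 of them (Oaz1 and Slc18b1), against 3.53% of all genes tested, and with PS-MP below control for 0, against 2.68%. PS-MP was higher in all 3 pairs for 10 of the 36 (14.6% of all genes) and lower for 8 (13.3% of all genes).

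In arginine use and the urea cycle (8 of 14 tested, 0 called, 4 positive) the most abundant genes were the dimethylarginine hydrolases Ddah1 and Ddah2. Ddah1 was at 70.5, 72.3 and 62.6 FPKM in PS-MP 1, 2 and 3 and at 73.0, 70.6 and 67.0 FPKM in control 1, 2 and 3 (log2 fold change -0.06 ± 0.08, SE). Ddah2 was at 15.1, 15.8 and 12.7 FPKM in PS-MP and at 13.3, 15.2 and 17.0 FPKM in control 1, 2 and 3. Nos2, the inducible nitric oxide synthase, which competes with arginase for arginine, was named after its values were seen. It was at 1.19, 1.33 and 2.21 FPKM in PS-MP and at 1.11, 1.02 and 1.85 FPKM in control 1, 2 and 3, highest in number 3 as was Ass1 (log2 fold change 0.24 ± 0.31, SE).

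In ornithine, proline and glutamate metabolism (6 of 7 tested, 0 called, 3 positive) Oat, the mitochondrial ornithine aminotransferase, was at 109, 104 and 90.0 FPKM in PS-MP 1, 2 and 3 and at 103, 97.9 and 87.8 FPKM in control 1, 2 and 3. Aldh18a1, which makes the precursor of proline and ornithine from glutamate, was at 27.4, 27.0 and 21.9 FPKM in PS-MP and at 29.3, 26.6 and 23.8 FPKM in control 1, 2 and 3. Both were lowest in number 3. Their log2 fold changes were 0.05 ± 0.10 for Oat and -0.08 ± 0.12 for Aldh18a1 (SE).

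On the methionine side (3 of 3 tested, 0 called, 2 positive) Mtap, which salvages methylthioadenosine left by spermidine and spermine synthesis, was at 68.3, 60.1 and 67.0 FPKM in PS-MP 1, 2 and 3 and at 63.5, 54.9 and 64.3 FPKM in control 1, 2 and 3. Mat2a, which makes S-adenosylmethionine, was at 43.8, 35.5 and 36.6 FPKM in PS-MP and at 39.2, 34.8 and 37.4 FPKM in control 1, 2 and 3. The third gene of this list, Amd1, named after its values were seen, which decarboxylates S-adenosylmethionine to give the aminopropyl donor, was at 20.9 to 29.8 FPKM in PS-MP and at 22.4 to 29.9 FPKM in control libraries, highest in number 1.

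Among antizymes and breakdown genes (6 of 7 tested, 0 called, 2 positive) Oaz1, the antizyme that inhibits ornithine decarboxylase and targets it for degradation, was at 114, 112 and 107 FPKM in PS-MP 1, 2 and 3 and at 102, 99.3 and 102 FPKM in control 1, 2 and 3. All 3 PS-MP libraries were above all 3 control libraries, with a log2 fold change of 0.12 ± 0.06 (SE) that was not called. The Oaz1 to Odc1 ratio of FPKM was 1.26, 0.962 and 0.696 in PS-MP 1, 2 and 3 and 1.14, 0.933 and 0.715 in control 1, 2 and 3. Oaz2, a second antizyme, was at 27.9, 30.8 and 34.2 FPKM in PS-MP and at 26.7, 28.0 and 31.4 FPKM in control 1, 2 and 3. Pseudogene rows of both antizymes are in the table (Oaz1-ps at 9.35 to 11.8 FPKM over all libraries), so their levels may include or lack reads of the copies.

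In transport (9 of 11 tested, 0 called, 2 positive) Slc3a2, the heavy chain that pairs with several SLC7 light chains, was at 44.7, 34.7 and 33.8 FPKM in PS-MP 1, 2 and 3 and at 43.0, 37.7 and 37.6 FPKM in control 1, 2 and 3. Slc7a5, its large neutral amino acid partner, was at 42.6, 33.2 and 24.5 FPKM in PS-MP and at 46.4, 33.8 and 26.4 FPKM in control 1, 2 and 3. Like Slc7a1, both were highest in number 1. Slc18b1, a vesicular polyamine transporter named after its values were seen, was at 3.71, 3.78 and 4.04 FPKM in PS-MP and at 3.31, 3.47 and 3.39 FPKM in control 1, 2 and 3, without overlap (log2 fold change 0.16 ± 0.10, SE, not called).

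In the hypusine pathway, which uses spermidine to modify a translation factor (4 of 4 tested, 0 called, 2 positive), the factor itself, Eif5a, was at 378, 322 and 285 FPKM in PS-MP 1, 2 and 3 and at 354, 306 and 273 FPKM in control 1, 2 and 3. Its order across the numbers was that of Srm. Dohh, which completes the hypusine residue, was at 22.6, 20.0 and 20.3 FPKM in PS-MP and at 23.0, 20.4 and 21.1 FPKM in control 1, 2 and 3.

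**Figure D5:**
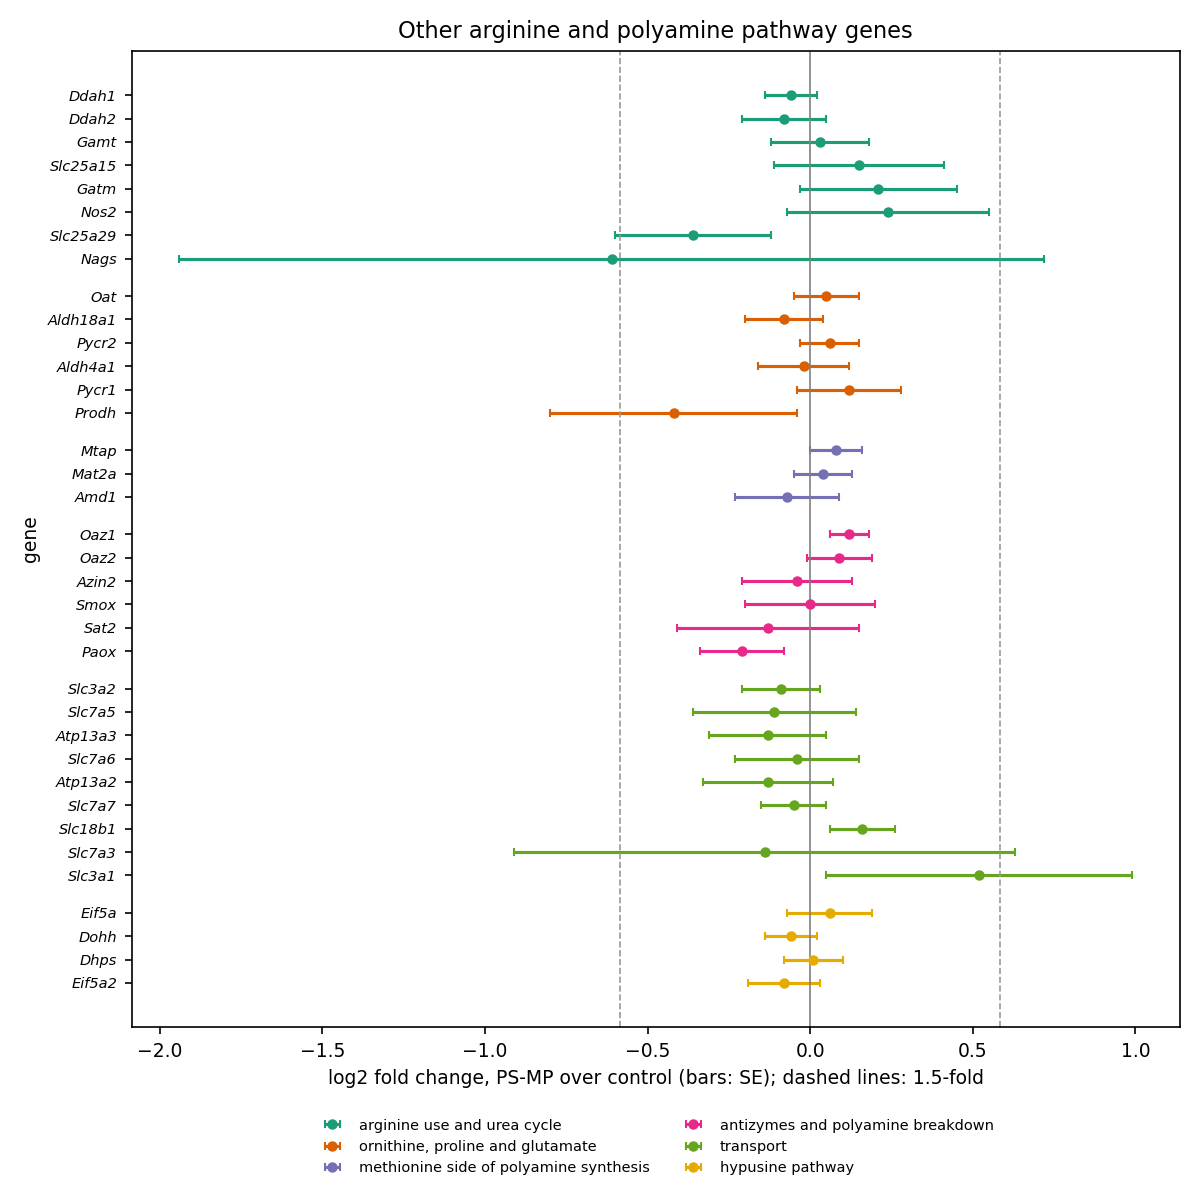
Log2 fold change of PS-MP over control with its SE for the 36 other pathway genes tested, grouped by role and ordered by mean FPKM within a group; dashed lines mark 1.5-fold. None passed the test, and Nags, with the lowest estimate (-0.61), also has the widest error.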

How the data were processed

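The 6 libraries (3 PS-MP, 3 control) came from cultured cells labelled as granulosa cells. Their poly(A) RNA was sequenced with a strand-marking kit, per the labels' protocols. The submitters' processing notes name cutadapt 1.9, HISAT2 2.2.1 (GRCm39) and StringTie 2.1.6, with no annotation version. Per the file headers, FPKM and counts were deposited for every gene in each library. The deposited counts are whole numbers but pile up at 4 (6687 values of 4, 3161 of 3, 2040 of 5), so they were treated as estimated counts; rounding changed 0 of them. The columns used (C_1 to C_3, P_1 to P_3) were taken by name. Another 12 columns of per-library values (C01 to C03, P01 to P03) were not used, and names alone do not settle which set belongs to the labelled samples. No libraries were identical within sampling noise.

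The two-sided quasi-likelihood test of edgeR 4.0.16 (R 4.3.3) was run after filterByExpr and TMM scaling, with treatment as its term, over 17186 genes with Benjamini-Hochberg adjustment. It was also run on simulated counts. Those held no effect of replicate number, so that run cannot show how the test behaves where numbers differ. Thresholds are those of the submitters' protocol. Members and lists were chosen with earlier results of these data known. DESeq2 1.42.0 and limma-trend (limma 3.58.1, log2 of FPKM plus 1 or 0.1) were alternatives. All 10 genes are named, then the 2 most abundant tested genes of each pathway list, any called gene, and 3 genes of most similar profile for each of the 2 members of widest range; Nos2, Arg1, Amd1, Slc18b1 and marker genes were named beyond this rule. Deviations from group means over 9324 genes correlated at 0.80, 0.14 and 0.60 between PS-MP and control libraries numbered 1, 2 and 3. The replicate number alone set the pairs in the fits, although the labels state no pairing. PS-MP 2 correlated more with control 3 (0.36) than with control 2 (0.14), and PS-MP 3 with control 2 reached 0.16. The pairing is thus an assumption, weakest for number 2, on which the blocked fits and the pair differences rest. Coordinates are those deposited with the data. Exon overlaps are from GENCODE M39, whose gene extents differ from the deposited ones for all 10 genes, so the overlaps are approximate.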

Additional observations from a re-analysis of the deposited data

How the results depend on the processing

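Among 17186 genes 0 were called. There was 1 with DESeq2, 1 with the replicate block in edgeR and 4 with DESeq2 and the block (an alternative added after the data were seen); leaving out 1 library, or 1 pair with the block, gave 0 to 15 (15 without pair 2, 9 without pair 3). None of the 10 genes was called under any alternative run. With all libraries 86 of 89 of their values kept their sign; the others were those of Slc7a2, at -0.00113 with DESeq2, -0.00068 with RLE size factors and -0.000168 with DESeq2 and the block. Arg2 fell below the stricter filter of 10 CPM and has no value there. The replicate block turned no sign with all libraries in edgeR, and the SE of Ass1 was 0.05 with it, against 0.52 without it.

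With libraries or pairs left out, log2 fold changes ran from -0.172 to 0.741 for Ass1, -0.141 to 0.263 for Odc1, -0.131 to 0.284 for Srm, -0.22 to 0.138 for Slc7a1, -0.0677 to 0.179 for Sat1, -0.0446 to 0.0483 for Azin1, -0.00355 to 0.0478 for Sms and -0.0612 to 0.0887 for Slc7a2. Asl (-0.0865 to -0.0197) and Arg2 (-0.515 to -0.141) kept their sign. In fits without the block, Ass1, Odc1, Sat1 and Slc7a1 turned without PS-MP 3 or control 1, and Srm without PS-MP 1 or control 3. Azin1 turned without PS-MP 1, control 2 or control 3, and Sms without control 3. Slc7a2 turned without PS-MP 2, PS-MP 3, control 1 or control 3. With the block and without pair 1, Sat1 was at -0.047, Slc7a1 at 0.0289 and Azin1 at -0.00474; without pair 2 Azin1 was at -0.00168, and without pair 3 Slc7a2 was at -0.0271. The cause was not tested. Counts of 43 to 89 per library limit the precision of Arg2.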
